A study of Mus musculus with 4 samples.

Results

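The genes described are the cytochrome P450 and drug conjugation enzymes of mouse pancreatic cancer cells. They were chosen by gene name alone: the P450 families Cyp1 to Cyp4, the UDP-glucuronosyltransferases Ugt1 and Ugt2, the sulfotransferases (Sult), the aldo-keto reductases Akr1a to Akr1e, and the carboxylesterases Ces1 to Ces5. The array carried 138 such names among 37074 gene names, and 137 of them had a value. The values came from 4 one-colour microarrays of total RNA from C57BL/6 cancer cells labelled K5 and K6. In each line 1 array held cells given the solvent DMSO (control) and 1 held cells given halofuginone at 100 nM for 24 hours. The labels give the tissue as pancreatic cancer and state neither the genotype of the lines nor how many animals they came from. With 1 array for each line and treatment, the 2 lines stood as the replicates. The p-values rest on how far the change with halofuginone differed between these 2 lines only. In the fit each gene's spread was also drawn toward a value shared by all measured genes. An SE or p-value is therefore not a measure of that gene's own spread alone.

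P450s insert oxygen into fats, steroids and drugs, and together with the aldo-keto reductases and carboxylesterases they make up the first phase of drug metabolism. UDP-glucuronosyltransferases and sulfotransferases carry out the second phase, in which a sugar acid or a sulfate is joined to the molecule so that it can leave the cell. Most of these enzymes are known from liver, intestine and kidney, and many sit in tandem clusters of near copies. Halofuginone, a derivative of the plant alkaloid febrifugine, inhibits prolyl-tRNA synthetase, and the series title concerns depletion of the transcription factor Nrf2, whose known targets include some aldo-keto reductases and glucuronosyltransferases.

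Values are log2 signals relative to the 75th percentile of the same array, so 0 marks that percentile. They differ between probes in ways that do not reflect RNA amount, so each gene is compared with itself across the arrays. A gene was called well above background where the scanner software flagged the spot of its brightest probe so, and it was measured, meaning tested, where this held on at least 2 of the 4 arrays. On the 4 arrays 47.25% to 53.98% of spots were well above background, with the 2 higher shares on the halofuginone arrays. No spot was saturated.

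Fewer of the enzymes were detected after halofuginone. Of 137 members, 58 were well above background on the control K5 array and 48 on the halofuginone K5 array. In K6 the numbers were 59 and 45. Over all 4 arrays 35 members were always detected, 63 never, and 74 on at least 1, of which 14 on a single array. A share of 46.0% of members was thus detected on no array, against 39.6% of all 36918 genes. Detection on both control arrays and on neither halofuginone array held for 13 members, or 9.49%, and for 193 genes in all, or 0.523%. The opposite pattern held for 2 members, Cyp1a1 and Cyp4a31, or 1.46%, and for 1045 genes in all, or 2.83%.

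**Figure D1:**
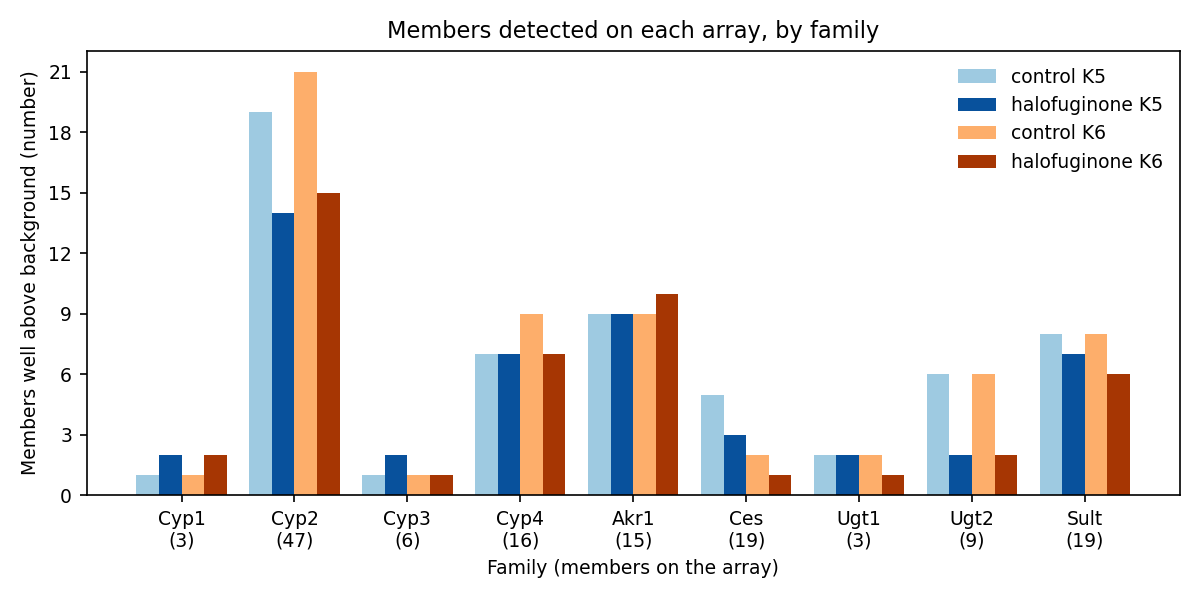
Number of members well above background on each of the 4 arrays (bars), by family, with the number of members on the array in brackets. The Ugt2 family went from 6 detected members on each control array to 2 on each halofuginone array, while Akr1 stayed at 9 or 10 on every array.

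In the fit across all 19093 measured genes (limma with the line as a block, Benjamini-Hochberg adjusted p under 0.05), 24 of the 60 measured members fell with halofuginone, 3 rose and 33 passed in neither direction. Over all measured genes 5.08% fell and 3.88% rose. A member seen only on the control arrays had to differ to be counted, and 13 of the 24 were of that kind. Among the 35 members well above background on all 4 arrays 8 fell and 1 rose, where the same fit gave 4.18% lower and 2.79% higher for the genes detected on all 4 arrays. On the log2 scale the median of those 35 members stood at -0.92 for K5 and -1.11 for K6, against -0.06 and 0.03 for the genes detected on all 4 arrays. Of the 60 measured members 47 were lower in both lines and 6 higher in both, and 37.98% of all measured genes were lower in both. These counts take the sign alone, also where both values of a line were dim, as for Sult5a1 and Ces2g in K6. Dim values sat lower on the halofuginone arrays, so such a sign is not a measured fall. The lowest signal well above background was -4.17 (K5) and -4.25 (K6) on the controls and -4.92 and -5.01 after halofuginone. Sult1e1, detected on no array, differed by -0.76 and -0.74. All 27 calls lay close to the threshold, with adjusted p between 0.0359 and 0.0498. None remained when the array scale was taken over probes detected on all arrays, when dim genes were kept, when dim values were raised to a common floor, or when the line was left out as a block, and in these settings all measured genes also gave 0 calls. The unadjusted p was under 0.05 for 37 members lower and 4 higher.

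**Figure D2:**
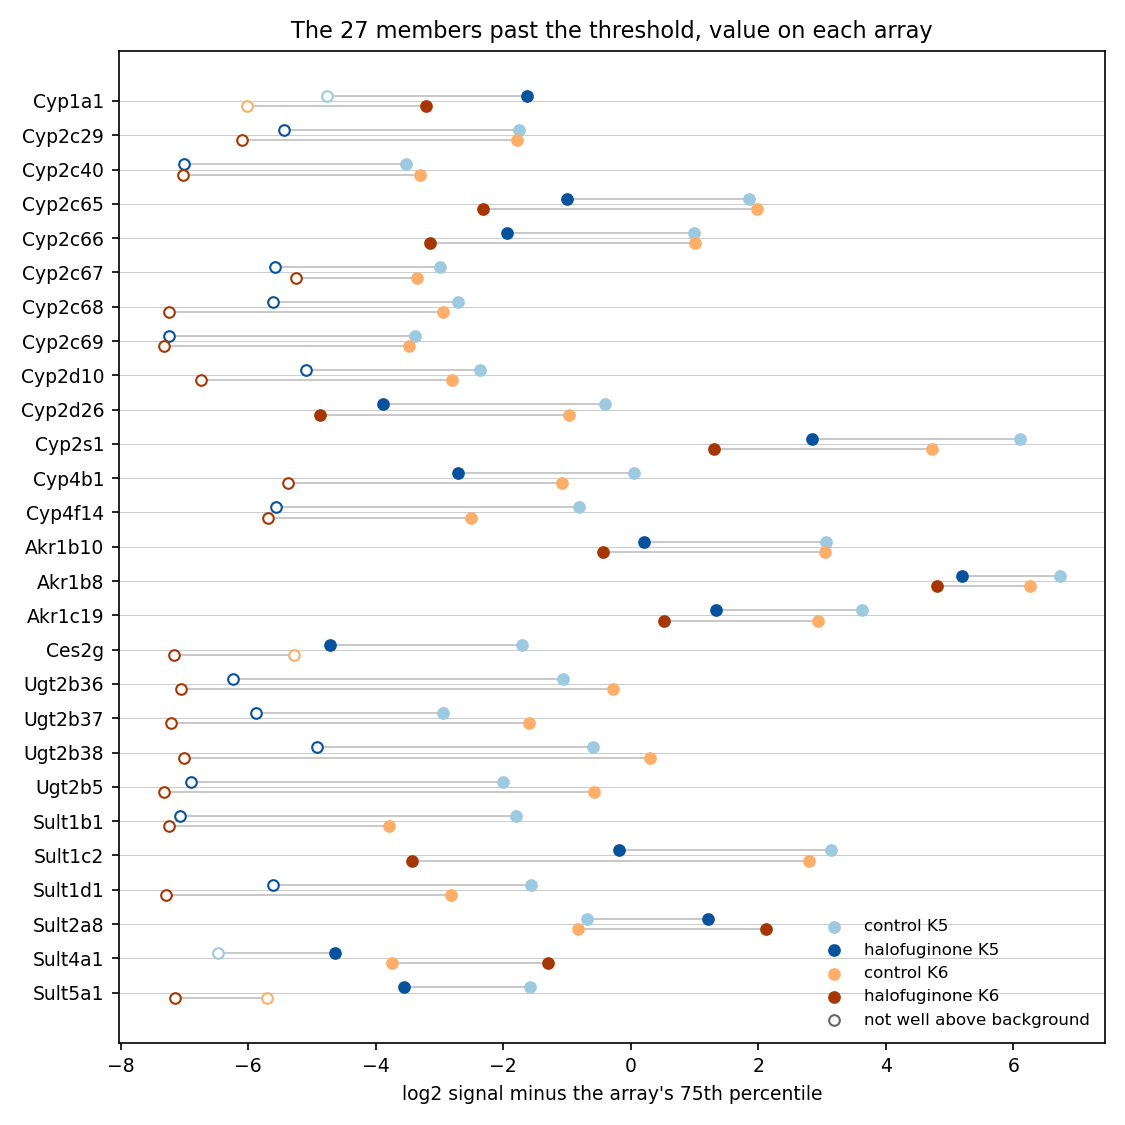
Value of the 27 members past the threshold on each array, as log2 signal minus the array's 75th percentile; the K5 pair lies above the K6 pair for each gene, a line joins control and halofuginone, and open points were not well above background. In 24 genes both halofuginone points lie left of the control point of their line, and in Cyp1a1, Sult2a8 and Sult4a1 both lie right of it.

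Among the P450s 12 of the 31 measured members fell with halofuginone and 1 rose. Cyp1a1, a hydrocarbon hydroxylase and the classic target of the aryl hydrocarbon receptor, was the P450 that rose. Its values were -4.76 and -6.02 on the K5 and K6 control arrays, neither well above background, and -1.63 and -3.21 on the halofuginone arrays, both well above it. The rise was therefore at least 3.45-fold (adjusted p = 0.0359). Bounds of this kind set the mean of the group in which the gene was detected against the mean, over the other group's arrays, of the lowest signal well above background on that array, or of the probe's own value where higher. The probe lies at chr9:57551535-57551594 (mm9). The other detected Cyp1 enzyme, Cyp1b1, did not pass, and Cyp1a2 was detected on no array.

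The 250 bases before the RefSeq start of Cyp1a1 (GRCm38.p6) are shown because this is the P450 that rose. Capitals mark the core GCGTG of the element bound by the aryl hydrocarbon receptor, searched on both strands.
Cyp1a1, chr9:57697363-57697612, plus strand: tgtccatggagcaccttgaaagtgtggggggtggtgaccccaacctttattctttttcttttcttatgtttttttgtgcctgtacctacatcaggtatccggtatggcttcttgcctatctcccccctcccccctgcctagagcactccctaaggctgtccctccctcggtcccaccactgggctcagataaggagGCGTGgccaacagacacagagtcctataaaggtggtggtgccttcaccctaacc
The core was found once in this window. It was present in 28.2% of all 32851 promoter windows of this length and in 17.9% of those of the members that fell.

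The Cyp2 family, which handles drugs, steroids and arachidonic acid, held 47 members. Of these 22 were detected on no array and 19 were measured; 10 fell and 0 rose (limma; also 0 higher at an unadjusted p under 0.05). The median over the 19 stood at -2.71 for K5 and -2.69 for K6, and at -1.97 and -1.92 over the 12 members detected on all arrays. Cyp2s1, an enzyme of epithelia outside the liver, read 6.10 and 4.72 on the K5 and K6 control arrays and 2.84 and 1.31 on the halofuginone arrays. Both halofuginone values lay below both controls, and the fitted change was -3.33 ± 0.26 (SE), a 10.1-fold fall (adjusted p = 0.0359), at chr7:26587495-26587554 (mm9). Cyp2u1, a fatty acid hydroxylase, read 6.21 and 6.27 in the controls and 6.69 and 7.24 after halofuginone, and this difference of 0.73 ± 0.28 did not pass (adjusted p = 0.165). The Cyp2a and Cyp2b enzymes, among them nicotine- and phenobarbital-related P450s of liver, were dim: 8 of their 9 members were detected on no array and Cyp2b23 on the control K5 array alone. Cyp2d11, the vitamin D hydroxylase Cyp2r1 and Cyp2w1 had fitted changes of -0.75, 0.05 and -0.36 and did not pass.

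Within Cyp2 the arachidonic acid epoxygenases and hydroxylases of the Cyp2c cluster were mostly lower. The values of all 10 measured Cyp2c members were lower in both lines and 7 of them passed. For Cyp2c37 in K5 the direction is not measured, as described below. Of these 10, 5 were detected on the control arrays only, so they had to differ to be counted. Of the 4 detected on all arrays 2 passed. Cyp2c65 read 1.86 and 1.98 in the K5 and K6 controls and -0.997 and -2.32 after halofuginone. Its neighbour Cyp2c66 read 0.99 and 1.01 in the controls and -1.93 and -3.15 after halofuginone. In each of these genes the lines were within 0.2 of each other before treatment and K6 was the lower line after it. Cyp2c65 fell 11.9-fold (log2 change -3.58 ± 0.44, adjusted p = 0.0404) and Cyp2c66 11.6-fold (-3.54 ± 0.40, adjusted p = 0.0389).

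Another 5 Cyp2c members were detected on both controls and on neither halofuginone array. Cyp2c29, a main Cyp2c enzyme of mouse liver, went from -1.75 and -1.78 in the controls to -5.43 and -6.09, a fall of at least 9.20-fold. The bound was 4.41-fold for Cyp2c68, 3.47-fold for Cyp2c67, 2.94-fold for Cyp2c40 and 2.90-fold for Cyp2c69, with adjusted p from 0.0359 to 0.0436 over these 5 genes. Cyp2c38 and Cyp2c70 were at least 2-fold lower in both lines without passing, with fitted changes of -2.02 (adjusted p = 0.0512) and -2.31 (adjusted p = 0.0793). Cyp2c37, named after its values were seen, was the one measured Cyp2c gene whose values differed by less than 2-fold in both lines, at -0.23 in K5 and -0.96 in K6. In K5 its control value was not well above background while its halofuginone value was, so no size or direction can be given for K5.

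The probes of some near copies were alike in sequence. Over all 9316 pairs of members' probes, each 60 bases long, 7 pairs matched at 45 or more bases in their best ungapped alignment, and 2 of those pairs had both genes measured. The probes of Cyp2c67 and Cyp2c68 matched at 55 of 59 aligned bases. A 30-base stretch of each is shown, 5′ to 3′, with the bases that differ in capitals.
Cyp2c67 probe: acAcagtcccagAaattccatctatattcc
Cyp2c68 probe: acCcagtcccagGaattccatctatattcc
Signal from the RNA of one gene on the probe of the other was not tested, so the falls of this pair may not be separate. The other pair, Ugt2b37 and Ugt2b5, matched at 46 of 55 aligned bases.
Ugt2b37 probe: AatttatgaGccaccttctaaacactGATT
Ugt2b5 probe: TatttatgaAccaccttctaaacactTGAC

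The Cyp2c probes lie at chr19:39168290-40228028 (mm9), a span of 1059.7 kb with 13 members. No other measured gene had its probe there. Within 1 Mb on either side 23 other genes were measured, of which 1 fell and 4 rose, with a median change of 0.09 against -3.56 over the 10 Cyp2c genes. The Cyp2c genes are near copies, so their values are not independent of each other. Of the 10 measured, 5 were detected on the controls only and had to differ to be counted.

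Promoters are shown for Cyp2c65 and Cyp2c66 because both genes were detected on all arrays, fell together and lie next to each other. The windows are the 250 bases before the RefSeq start (GRCm38.p6), and capitals mark CAAAGTCCA, a recognition sequence of the liver and gut factor HNF4, searched on both strands.
Cyp2c65, chr19:39060756-39061005, plus strand: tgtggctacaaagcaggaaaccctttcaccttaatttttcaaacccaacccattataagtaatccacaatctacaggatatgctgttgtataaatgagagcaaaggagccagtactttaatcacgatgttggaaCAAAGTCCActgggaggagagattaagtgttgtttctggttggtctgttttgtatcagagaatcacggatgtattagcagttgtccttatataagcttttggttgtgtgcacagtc
Cyp2c66, chr19:39113648-39113897, plus strand: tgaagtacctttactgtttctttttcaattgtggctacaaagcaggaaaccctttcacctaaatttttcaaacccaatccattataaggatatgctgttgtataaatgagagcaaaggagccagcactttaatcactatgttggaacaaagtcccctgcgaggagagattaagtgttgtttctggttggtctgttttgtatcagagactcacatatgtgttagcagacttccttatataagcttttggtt
The letters occurred in the Cyp2c65 window and not in that of Cyp2c66. They were present in 6 of the 10 measured Cyp2c genes (Cyp2c40, Cyp2c65, Cyp2c67, Cyp2c68, Cyp2c69 and Cyp2c70) and in 0.384% of all promoter windows, against 17.9% of the windows of members that fell, all of them Cyp2c genes. Of 113 members with a RefSeq promoter, 7 held them, the seventh being Cyp3a11.

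In Cyp2d, the drug oxidases related to human debrisoquine hydroxylase, 2 of 3 measured members fell. Cyp2d26 read -0.40 and -0.97 in the controls and -3.89 and -4.88 after halofuginone, and fell 12.9-fold (adjusted p = 0.0359). A second Cyp2d26 probe, also detected on all arrays, differed by only -1.15 in K5 and -0.41 in K6, so the size of this fall depends on the probe. Cyp2d10 was detected on the controls only, at -2.37 and -2.81, and fell at least 5.20-fold (adjusted p = 0.0392). Cyp2j6 and Cyp2j8, epoxygenases of arachidonic acid, were at least 2-fold lower in both lines but did not pass, at -2.06 (adjusted p = 0.0589) and -1.65 (adjusted p = 0.0829).

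The Cyp3 family, whose liver enzymes oxidise many drugs, held 6 members and 1 measured gene. Cyp3a13 read 3.09 and 2.94 in the controls and 2.19 and 3.28 after halofuginone, so it was lower in K5 and higher in K6. Cyp3a11 was detected on the halofuginone K5 array alone.

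Of 16 Cyp4 members, the fatty acid hydroxylases, 9 were measured and 2 fell. Cyp4b1, which hydroxylates short fatty acids outside the liver, read 0.05 and -1.07 in the controls and -2.72 and -5.37 after halofuginone (adjusted p = 0.0423). The last value was not well above background, so the difference in K6 is known only as at least 15.4-fold. Cyp4f14, which inactivates leukotriene B4, read -0.81 and -2.51 in the controls and was not well above background after halofuginone, a fall of at least 9.89-fold (adjusted p = 0.0392). Cyp4f16, of the same family and chromosome, differed by -1.35 in K5 and -1.11 in K6 and did not pass (adjusted p = 0.0655). The remaining measured members Cyp4a10, Cyp4a31, Cyp4f13, Cyp4f17, Cyp4f18 and Cyp4v3 had fitted changes from -1.68 (Cyp4v3) to 0.26 (Cyp4a31) and did not pass. The median of the 5 Cyp4 members detected on all arrays was -0.83 in K5 and -0.34 in K6.

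Several glucuronosyltransferases went from detected to not detected. In Ugt2, which joins glucuronic acid to steroids, bile acids and drugs, all 6 measured members of 9 were lower in both lines and 4 passed. These were Ugt2b5, Ugt2b36, Ugt2b37 and Ugt2b38, each detected on both controls and on neither halofuginone array, so they had to differ to be counted. Ugt2b36 read -1.07 and -0.28 in the K5 and K6 controls and -6.24 and -7.05 after halofuginone, a fall of at least 19.6-fold (adjusted p = 0.0359). Ugt2b38 read -0.59 and 0.30 in the controls and -4.92 and -7.01 after halofuginone, a fall of at least 28.3-fold (adjusted p = 0.0431). In both genes the control value was higher in K6. Neither gene was well above background on a halofuginone array, so the lines cannot be ordered after treatment. The bound was 12.8-fold for Ugt2b5 (adjusted p = 0.0359) and 6.49-fold for Ugt2b37 (adjusted p = 0.0490).

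Ugt2b34 stayed well above background throughout. It read 4.02 and 2.81 in the controls and 2.50 and -0.57 after halofuginone, and the difference of -2.45 ± 0.53 did not pass (adjusted p = 0.0676). Ugt2a1, the olfactory enzyme of the family, differed least, by -0.92 in K5 and -0.95 in K6 (adjusted p = 0.0957). The remaining members Ugt2a3, Ugt2b1 and Ugt2b35 were detected on no array.

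The 4 Ugt2b genes that fell had related promoters. The 250 bases before each RefSeq start (GRCm38.p6) are shown because the 4 genes moved together, and capitals mark the longest run of letters that all 4 windows share.
Ugt2b36, chr5:87092556-87092805, minus strand: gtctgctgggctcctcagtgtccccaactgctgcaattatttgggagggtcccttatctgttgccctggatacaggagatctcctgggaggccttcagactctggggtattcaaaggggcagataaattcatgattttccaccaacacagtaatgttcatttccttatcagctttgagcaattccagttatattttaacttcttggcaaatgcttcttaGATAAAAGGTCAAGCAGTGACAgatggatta
Ugt2b5, chr5:87140341-87140590, minus strand: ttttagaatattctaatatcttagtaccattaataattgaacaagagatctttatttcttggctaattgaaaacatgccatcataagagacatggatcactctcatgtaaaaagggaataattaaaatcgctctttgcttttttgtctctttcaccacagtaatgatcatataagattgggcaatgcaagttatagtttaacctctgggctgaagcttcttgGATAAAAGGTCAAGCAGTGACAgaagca
Ugt2b37, chr5:87254789-87255038, minus strand: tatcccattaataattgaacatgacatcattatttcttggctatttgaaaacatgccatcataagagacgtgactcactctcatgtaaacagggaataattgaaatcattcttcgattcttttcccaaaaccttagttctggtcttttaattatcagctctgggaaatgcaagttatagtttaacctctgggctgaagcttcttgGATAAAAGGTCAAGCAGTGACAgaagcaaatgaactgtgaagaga
Ugt2b38, chr5:87424204-87424453, minus strand: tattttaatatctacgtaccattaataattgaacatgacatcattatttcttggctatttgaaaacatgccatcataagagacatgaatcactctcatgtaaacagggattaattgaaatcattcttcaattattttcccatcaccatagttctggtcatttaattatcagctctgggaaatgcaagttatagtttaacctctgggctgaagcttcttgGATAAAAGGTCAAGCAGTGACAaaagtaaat
The run is 22 bases long and has its last base 7 to 24 bases before the gene start. It was picked because these 4 windows share it, so its presence in all 4 was fixed in advance. Searched on either strand, it was found in no other of 32851 windows. The window of Ugt2b34, which was also lower in both lines, did not hold it. Whether the run has a part in the falls was not tested.

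The sulfotransferases Sult1b1 and Sult1d1, which conjugate thyroid hormones, phenols and catecholamines, lie beside the Ugt2 genes and fell as well. Sult1b1 read -1.80 and -3.79 in the controls and fell at least 4.49-fold (adjusted p = 0.0394), with a bound of 2.32-fold in K6. A second Sult1b1 probe, well above background on the control K5 array alone, read -2.07 there and -6.96 after halofuginone. It was dim on both K6 arrays and gives no direction for K6. Sult1d1 read -1.57 and -2.81 in the controls and fell at least 6.85-fold (adjusted p = 0.0359). Neither was well above background on a halofuginone array. The 8 measured members of this stretch, chr5:87318849-87984717 (mm9, 665.9 kb), were lower in both lines, and 6 of them passed. All 6 were detected on the controls only, so they had to differ to be counted. The 2 detected on all arrays, Ugt2b34 and Ugt2a1, did not pass. No other measured gene had its probe in the stretch. Of the 8 other genes measured within 1 Mb on either side 0 passed (limma; 2 lower and 2 higher at an unadjusted p under 0.05), and their median change was 0.15.

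**Figure D3:**
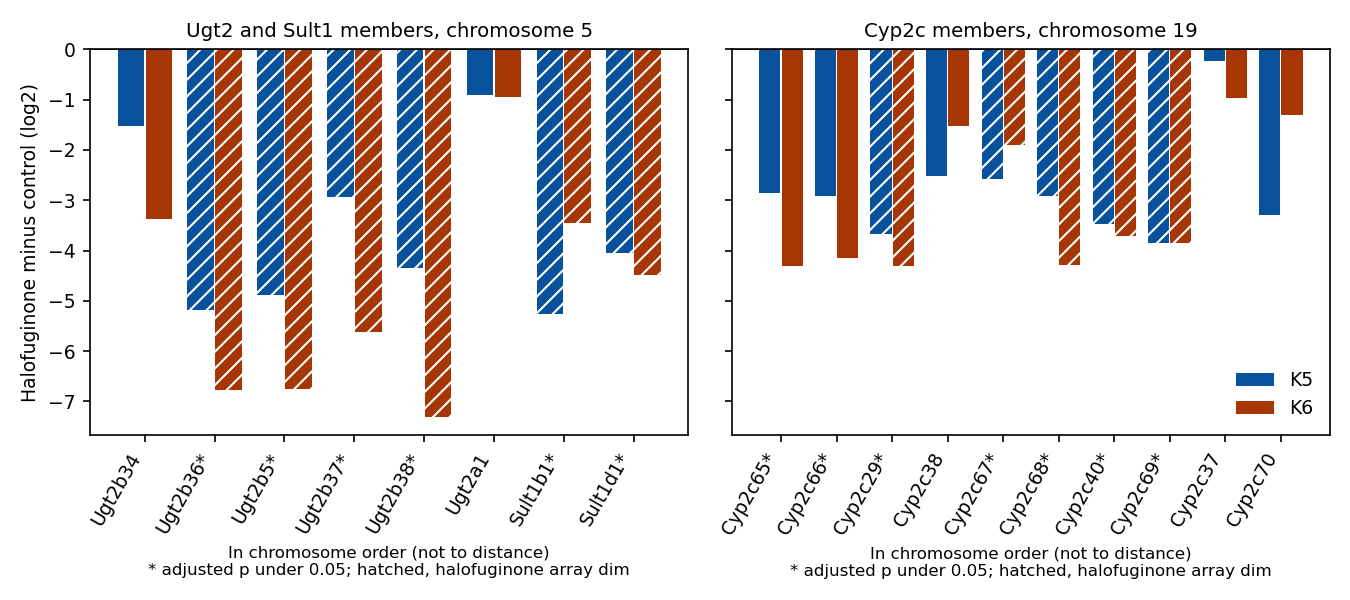
Change with halofuginone in K5 and K6 (bars, log2) of the measured members of the chromosome 5 and chromosome 19 clusters, in chromosome order. All bars of the 18 genes point down. The shortest is that of Cyp2c37 in K5, at -0.23. Its control value there was not well above background, so this bar has no measured size or direction. Hatched bars end at a value not well above background, so their length is not a measured size.

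The Ugt1 genes, which glucuronidate bilirubin and phenols, have their own first exons and share their last ones. The brightest probe named Ugt1a6b, at chr1:90115493-90115552 (mm9), read 5.09 and 4.13 in the K5 and K6 controls and 3.78 and -0.09 after halofuginone. Its other probes, at chr1:90004249-90004308 and chr1:90114900-90114959, changed by -1.24 and -1.15 in K5 and by -5.32 and -4.15 in K6, where the -5.32 ends at a value not well above background. The 2 probes detected on all arrays were both lower by more in K6 than in K5, and the fitted change of -2.77 ± 0.77 did not pass (adjusted p = 0.0985). Ugt1a10 differed by -1.04 in K5 and, with the halofuginone value not well above background, by at least 8.48-fold downward in K6 (adjusted p = 0.115). The probe named Ugt1a6a, at chr1:90116514-90116573, was detected on no array. Which probes lie in shared exons was not tested, so a Ugt1 signal, or its absence, may not belong to the named gene alone. Whether the change differs between the lines cannot be tested with 4 arrays.

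The sulfotransferases moved in both directions: of 9 measured members among 19, 4 fell and 2 rose, and apart from the chromosome 5 pair 2 of 7 fell. Sult1c2, an enzyme of stomach and kidney that sulfates phenols, read 3.15 and 2.79 in the controls and -0.18 and -3.43 after halofuginone. It was well above background on all arrays and fell 27.4-fold (log2 change -4.78 ± 0.77, adjusted p = 0.0480), at chr17:53969205-53969264 (mm9). Its near copy Sult1c1, named after its values were seen, read -3.85 and -3.75 in the controls and -3.37 and -3.44 after halofuginone, and did not pass. Sult2a8, a liver sulfotransferase of bile acids, read -0.69 and -0.83 in the controls and 1.22 and 2.12 after halofuginone, a rise of 5.38-fold (adjusted p = 0.0454). Sult4a1, a brain sulfotransferase without a known substrate, read -6.47 and -3.74 in the controls, the first not well above background, and -4.63 and -1.29 after halofuginone (adjusted p = 0.0436). Its K5 halofuginone value lies below the lowest signal well above background on the K5 control array, so no rise can be given for K5 and the call rests on K6, where the change was 2.45. In this gene the control K6 value was higher than the halofuginone K5 value, so the groups overlapped across lines.

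Sult5a1 fell by the fitted test (log2 change -1.71 ± 0.29, adjusted p = 0.0490) but rests on K5 alone. Its values in K5 were -1.58 in the control and -3.55 after halofuginone, while neither K6 value was well above background. Sult2b1, which sulfates cholesterol, read 0.10 and 1.08 in the controls and 0.39 and 0.88 after halofuginone and did not pass (adjusted p = 0.930). Sult1a1, a phenol sulfotransferase, differed by 0.58 in K6 and did not pass (adjusted p = 0.142). In K5 its control value was not well above background, and the difference was at least 3.52-fold upward. A second Sult1a1 probe, well above background on the control K6 array alone, read lower after halofuginone in both lines. The median of the 9 measured sulfotransferases, 0.28 in K5 and -0.20 in K6, changed sign between the lines.

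The aldo-keto reductases, which reduce aldehydes and ketones with NADPH, were detected on both sides of the comparison: all 9 measured members of 15 were well above background on every array, and 3 fell. Akr1a1, aldehyde reductase, read 6.41 and 6.54 in the controls and 5.76 and 5.83 after halofuginone. The lines gave nearly the same difference, -0.65 and -0.71, and the fit did not pass (adjusted p = 0.158). Akr1b8 and Akr1b10, aldose reductase-like enzymes that clear unsaturated aldehydes, fell. Akr1b8 read 6.73 and 6.26 in the controls and 5.20 and 4.81 after halofuginone, a fall of 2.81-fold (adjusted p = 0.0498). Akr1b10 read 3.06 and 3.04 in the controls and 0.21 and -0.44 after halofuginone, a fall of 8.99-fold (adjusted p = 0.0359).

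In the Akr1b stretch, chr6:34253930-34372964 (mm9, 119.0 kb), the 4 measured genes differed: 2 fell, Akr1b3 (the aldose reductase proper) differed by -0.26 in K5 and -1.13 in K6 without passing, and Akr1b7, named after its values were seen, differed by 0.91 in K5 and -0.42 in K6. On chromosome 13 Akr1c19, a hydroxysteroid dehydrogenase, read 3.62 and 2.94 in the controls and 1.35 and 0.53 after halofuginone, a fall of 5.08-fold (adjusted p = 0.0380). Its neighbours Akr1c12 and Akr1c13 did not pass. Akr1c12 differed by -0.66 ± 0.27 (adjusted p = 0.180). Akr1c13 read 5.09 and 5.14 in the controls and 4.41 and 4.71 after halofuginone (adjusted p = 0.226). Akr1e1, which reduces a sugar, differed by -1.08 in K5 and -1.095 in K6 and did not pass either (adjusted p = 0.0758).

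The carboxylesterases, which split ester drugs and lipids, were mostly dim. Of 19 members 12 were detected on no array and none on all 4; 3 were measured and 1 fell. Ces2g read -1.71 in the K5 control and -4.72 after halofuginone, and neither K6 value was well above background (log2 change -2.45 ± 0.38, adjusted p = 0.0466). Ces2c read -0.62 and -3.87 in the controls and -3.76 and -5.48 after halofuginone, the last not well above background (adjusted p = 0.0575). Ces2a and Ces2b were well above background on the control K5 array alone, at -3.09 and -1.27, and were not tested. The call of Ces2g, like that of Sult5a1, rested on values from K5. Of 10 alternative settings Ces2g passed in 3 and Sult5a1 in 1.

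**Figure D4:**
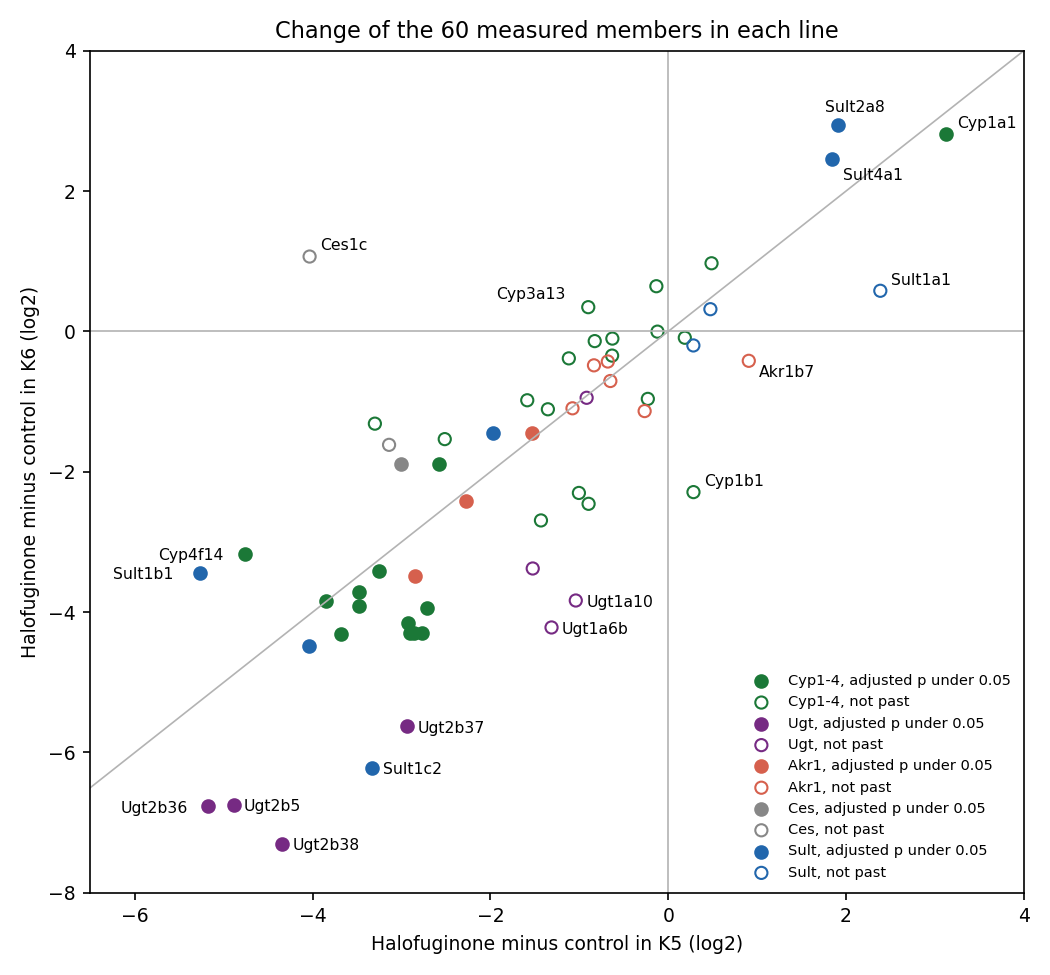
Change with halofuginone in K6 against the change in K5 (log2) for the 60 measured members, coloured by family; filled points passed the adjusted p threshold and the diagonal marks equal change. Of the 60 points 47 lie at the lower left, below 0 in both lines, points of genes not well above background after halofuginone are placed at their measured value and have only a bound, and Ces1c, Cyp3a13, Cyp1b1 and Akr1b7 have opposite signs in the lines.

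Between the lines no member passed: limma gave 0 of 60 at an adjusted p under 0.05, with a lowest adjusted p of 0.0539, while 3 were higher and 12 lower in K6 at an unadjusted p under 0.05. Over all measured genes 0.173% passed. The lowest 4 adjusted p belonged to Sult5a1 (0.0539), Sult4a1 (0.0600), Ces2g (0.0831) and Cyp2c37 (0.0848), named after their values were seen. Each had at least 1 value not well above background: Sult5a1 and Ces2g on both K6 arrays, Sult4a1 and Cyp2c37 on the K5 control array. The size of their difference between the lines is therefore not given.

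Cyp1b1, a P450 of tumours that oxidises oestrogens and hydrocarbons, behaved differently in the lines. It read -1.15 in the K5 control and -0.87 after halofuginone, and 0.57 in the K6 control and -1.72 after halofuginone, with all 4 values well above background. The fitted change was -1.003 ± 0.69 (adjusted p = 0.371). Among the 5 measured genes closest to it, by Euclidean distance over the 4 values centred on their mean, were Parp14 (distance 0.217), BC020092 (0.261), 4930518P08Rik (0.298) and Rps6ka6 (0.303). Parp14, an ADP-ribosyltransferase, changed by 0.05 in K5 and -2.25 in K6. Likeness over 4 arrays is a description of these arrays.

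Of 11 P450 partner genes, all measured, 1 rose and 1 fell, where 3.88% and 5.08% of all measured genes did. Por, the reductase that hands electrons to all microsomal P450s, read 4.84 and 4.61 in the controls and 4.18 and 4.88 after halofuginone (adjusted p = 0.714). Fdxr, the mitochondrial reductase, fell by 2.07 on the log2 scale (adjusted p = 0.0443), and Cyb5r1, a cytochrome b5 reductase, rose by 2.58 (adjusted p = 0.0375). The median over the partner list was -0.42 in K5 and 0.15 in K6.

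Of 18 xenobiotic receptors and partners 14 were measured and 1 fell, where 5.08% of all measured genes did. Nr1i2, the pregnane X receptor that switches on Cyp2c and Cyp3a genes, read -1.46 and -2.79 in the controls and -4.49 and -5.92 after halofuginone, the last not well above background (log2 change -3.08 ± 0.26, adjusted p = 0.0359). Hnf4a, singled out because its binding letters were searched above, differed by -1.35 ± 0.26 and did not pass (adjusted p = 0.0572). Ahr, the receptor behind Cyp1a1, read 1.41 and 1.18 in the controls and 0.49 and 1.64 after halofuginone (adjusted p = 0.735). Nfe2l2, the gene of Nrf2, differed by 0.34 ± 0.26 at the RNA level (adjusted p = 0.420). Of 7 measured AHR target genes outside the families 1 fell and 0 rose. At an unadjusted p under 0.05 (limma) 2 were higher and 2 lower. The list median was -0.51 in K5 and -0.44 in K6. The gene that passed was Aldh3a1, an aldehyde dehydrogenase, at 5.13 and 3.12 in the controls and 2.25 and 0.94 after halofuginone (adjusted p = 0.0399), the opposite direction to Cyp1a1. Tiparp and Aldh1a3, named after their values were seen and detected on all arrays, were higher in both lines without passing. Tiparp differed by 1.20 in K5 and 2.50 in K6 (adjusted p = 0.0708), and Aldh1a3 by 0.75 and 2.80 (adjusted p = 0.124). Scin, Lypd2 and Nqo1 of the same list went the other way without passing. Lypd2 differed by -0.51 in K5 and -1.15 in K6. Scin differed by -0.65 in K6 and was not well above background after halofuginone in K5. Nqo1 differed by -1.73 in K5 and was dim on both K6 arrays.

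The supply of conjugation partners was measured in 19 of 20 genes, of which 2 fell, where 5.08% of all measured genes did. Both make the sulfate donor PAPS: Papss1 changed by -1.65 ± 0.27 (adjusted p = 0.0481) and Papss2 by -2.30 ± 0.34 (adjusted p = 0.0454). Ugdh, which makes the glucuronic acid donor, differed by -0.64 ± 0.33 and did not pass (adjusted p = 0.257). Papss1 and Papss2 thus fell, with adjusted p close to the threshold, while the sulfotransferases themselves moved both ways.

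Of 22 measured phase I enzymes outside the families 7 fell and 15 did not pass, where 5.08% of all measured genes fell (Pon1, Fmo5, Ephx1, Cbr1, Cbr3, Aox1 and Pon3). Ephx1, the microsomal epoxide hydrolase that acts on P450 products, read 3.70 and 2.94 in the controls and 0.39 and -1.03 after halofuginone (log2 change -3.64 ± 0.30, adjusted p = 0.0359). Pon1, an esterase of lipoproteins, was detected on the controls only and fell at least 5.03-fold. Fmo5, a flavin monooxygenase, changed by -3.93 ± 0.50 (adjusted p = 0.0420).

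Of 12 measured conjugation enzymes outside the families 5 fell, 1 rose and 6 did not pass, where 5.08% of all measured genes fell and 3.88% rose. Gstt1, a glutathione transferase, read 2.71 and 1.88 in the controls and -1.61 and -2.60 after halofuginone (adjusted p = 0.0359). The acetyltransferase Nat2, detected on all arrays, changed by -2.85. Glyat, which joins glycine, was detected on the controls only and fell at least 5.45-fold. Gstk1, another glutathione transferase, changed by -3.55 in K5 and was not well above background after halofuginone in K6, where the difference was at least 7.34-fold. Nnmt, which methylates nicotinamide, was not well above background on the controls and rose at least 3.996-fold (adjusted p = 0.0366). Of 9 measured P450s outside Cyp1 to Cyp4 2 fell: Cyp39a1, an oxysterol hydroxylase, with a log2 change of -3.37, and Cyp51, the lanosterol demethylase, with -1.92. The medians were -1.40 in K5 and -1.62 in K6 for the phase I list, -1.57 and -2.29 for the conjugation list and -1.21 and -1.18 for the other P450s, against -0.03 and 0.04 over all measured genes.

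Cell type markers were read beside these values. Over all measured genes 5.08% fell and 3.88% rose. All 10 epithelial and ductal markers were well above background on every array and 1 fell (Muc1). Of 10 hepatocyte markers 6 were measured and 4 fell: Alb, Ttr, Serpina1a and Fgb. The summed linear level of the hepatocyte list, in multiples of the 75th percentile, was 18.4 and 28.8 on the control arrays and 4.39 and 6.68 on the halofuginone arrays, and Fga and Pck1 were detected on no array. Serpina1a, the one of the 4 detected on all arrays, read 3.64 and 4.54 in the controls and 0.16 and 1.68 after halofuginone. Apoa2 and Tat, detected on all arrays, did not pass, with differences of -0.36 and -0.30 in K5 and 0.03 and -0.11 in K6. The part of these markers in the results on the Cyp2c and Ugt2b genes was not tested. Of the acinar list Cela2a, Cpa1, Prss2 and Ptf1a were detected on no array, its summed level was 2.64 to 3.71 on the controls and 0.495 to 0.789 after halofuginone, and 1 of 2 measured genes fell (Cela1). Of 6 measured immune markers 2 fell (Cd68 and Cd14), with a summed level of 28.8 to 31.7 on the controls and 10.5 to 14.1 after halofuginone. Of 3 measured fibroblast markers 0 passed (limma; also 0 at an unadjusted p under 0.05), with Lum, Pdgfrb and Fap detected on no array. Their summed level was 0.276 to 0.395 on the controls and 0.134 to 0.404 after halofuginone. The 1 measured endothelial marker, Kdr, rose, while Cdh5 and Tie1 were detected on no array; that list summed to 0.0952 to 0.140 on the controls and 0.146 to 0.646 after halofuginone. In such bulk RNA fewer cells of a kind and less RNA per cell cannot be told apart.

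For 6 sequence motifs the share of promoters that hold them was counted. Searched on both strands in the 250 bases before the start, the antioxidant response core TGACNNNGC, the element through which Nrf2 acts, was present in 1 of 28 windows of members that fell (Cyp4f14) and in 10.2% of all windows. The half-site GTTAAT of the liver and gut factor HNF1 was present in 6 of those 28 windows (21.4%), in 18.5% of the windows of members not tested, in 7.14% of those not called and in 6.43% of all. A longer HNF1 form, which contains the half-site, was present in 1 of the 28 (Sult1d1, 3.57%), in 9.23% of the windows of members not tested and in 0.371% of all. The amino acid response letters TGATGNAAT were in none of the 28 and in 0.816% of all. The members include near copies, so their windows are not independent, and a match is a run of letters and not a measured site.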

How the data were processed

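Cells of the lines K5 and K6 were hybridised to 4 one-colour Agilent arrays, all on 1 slide. Per the file headers, the deposited intensity (processed signal) was background-subtracted and detrended by Agilent Feature Extraction 10.7.1.1, on mm9 coordinates; the submitters' processing notes give 9.5.1.1. The deposited value table, used as an alternative, holds the authors' processed intensities, which were taken to log2. Their normalization is not stated by any label or header read here. From the intensities, log2 minus the array's 75th percentile was taken, outlier spots (301 probes, and with them Cyp3a16) were left out, and the brightest probe stood for a gene. limma 3.58.1 (R 4.3.3) fitted treatment with the line as a block over 19093 genes (residual degrees of freedom 1, prior 2.965). The line pairs the arrays, since both arrays of a number come from 1 cell line (r = 0.4983 between the K6 minus K5 differences of control and halofuginone arrays). The fit was tested on simulated data with 200 changed genes. Of 38 members with several probes, 9 had more than 1 passing probe and 7 of these agreed in sign; Cyp2u1 and Cyp4f18 did not. RefSeq gave a current symbol for 137 members, 1 of them different.

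The members, lists, motifs and alternatives were chosen with earlier results of these data known. Genes named were those past the threshold, those changed at least 2-fold in both lines, the 3 brightest of each enzyme group, at most 4 called genes of each list and the 5 nearest to Cyp1b1, of which 1 is not reported here. The number of arrays limits the precision.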

Additional observations from a re-analysis of the deposited data

Results flagged for a closer look

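In 7 measured members the change with halofuginone had opposite signs in K5 and K6, and the difference was not tested, since 4 arrays leave no degrees of freedom for it. Ces1c, a carboxylesterase, had a K6 change above its K5 change by 5.10 on the log2 scale, but was well above background only on the control K5 and halofuginone K6 arrays. Cyp1b1 had a K6 change minus K5 change of -2.57, with all 4 values well above background. The same difference was 1.25 for Cyp3a13, -0.48 for Sult2b1, -1.33 for Akr1b7, 0.78 for Cyp4a31, dim on both controls, and -0.28 for Cyp2r1.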

How the results depend on the processing

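No called member changed direction under the alternatives run. Calls (higher, lower) came to 0 and 0 for members and for all genes with the percentile over probes detected on all arrays (which shifts the median of all genes by -0.115), with no filter on dim probes (median shift -0.343), with dim values raised to a common floor, and with no replicate block, that is, without pairing the arrays by line. All genes called were 2575 and 2853 with normexp, 2039 and 2161 with an intensity trend, 1909 and 2103 for genes detected on all arrays, and 223 and 364 with the mean over probes, where 1 member was higher and 14 lower. For genes detected on all arrays the 9 called members tested, 8 lower and 1 higher, all kept their calls. Of the 27 called members 25 kept theirs with normexp and 26 with the trend. Members called between lines were 1 with quantile normalization, 2 with median centring, the authors' deposited values or the trend, and 10 with normexp. Family medians (log2) of Cyp2, Cyp4, Ces and Ugt2 were -1.25, -0.52, -1.07 and -2.54 with normexp, and -1.51, -0.49, -1.23 and -2.67 with the floor; without the filter Cyp2, Ces, Sult and Ugt2 had -0.81, -0.76, -0.75 and -2.45, and on genes detected on all arrays Cyp4 and Ugt2 had -0.49 and -1.69. Without replicate 5 or 6 the medians ranged from -1.10 to -0.84 for Akr1 and from -6.19 to -3.64 for Ugt2; a count of calls without a replicate could not be had, since no residual degrees of freedom remain. Sult2b1 turned to -0.082 with the percentile over detected probes and Cyp2u1 to -0.14 with the mean over probes. The causes were not tested. Signal over background limits 16 of the 24 falls, which have a halofuginone value not well above background in at least 1 line, so the size of that difference is not measured there.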
